A study of Mus musculus with 24 samples.

Results

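Transcripts of pancreatic digestive enzymes were followed over 24 arrays of dendritic cells (DCs) prepared from mouse spleen. The 8 listed genes were Cela3b, Cela2a, Cpa1, Ctrb1, Pnlip, Clps, Cel and Prss2, and a probe set was counted when the probe-to-gene table gave it 1 symbol and that symbol was on the list. By this rule 7 of the 8 genes, with 14 of 22626 probe sets, were measured, and Pnlip had no probe set here. The genes were chosen by earlier results on their levels on these same arrays, and the exact measure used is not recorded. Levels, correlations and group differences are therefore descriptions of these arrays and are no independent evidence about the genes.

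The arrays held RNA of splenic CD11c+ DCs of neonatal BALB/c mice, harvested at 14 days of age after collagenase D digestion and enrichment on magnetic beads. Asthma-at-risk pups were born to mothers made asthmatic by ovalbumin (OVA) with alum and OVA aerosols, and normal pups to control mothers. Stimulated pups had been injected once into the peritoneum (OVA, 5 µg, adsorbed to alum, 1 mg), on day 3 by the sample labels and on day 4 by the study's methods, and naïve pups had not been injected. Set 1 held 4 stimulated at-risk, 4 stimulated normal, 4 naïve at-risk and 3 naïve normal arrays. Set 2 held 5 stimulated at-risk and 4 stimulated normal arrays. By the study's methods Set 2 was amplified by another protocol, and the sets were preprocessed separately. The sample titles give array numbers and no set, and the set of each array was inferred from these numbers together with the study's methods. The study's methods call the arrays of a group biological replicates, and the number of pups behind an array is not stated. The spread between arrays may include technical variation. Levels are log2 values of the deposited RMA intensities, whose median over all probe sets lay between 8.09 and 8.22 and lower quartile between 5.00 and 5.09 on the 24 arrays.

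The exocrine pancreas is built of acinar cells, which store digestive enzymes as inactive zymogens in granules and release them into the duct. Enzyme transcripts make up much of the RNA of an acinar cell, and the tail of the pancreas reaches the hilum of the spleen. Among the listed genes Prss2 encodes a trypsinogen, Ctrb1 a chymotrypsinogen, Cela2a and Cela3b elastase-type proteases and Cpa1 a carboxypeptidase, while Cel encodes the bile salt-dependent carboxyl ester lipase and Clps the colipase that anchors pancreatic lipase, the product of Pnlip, to fat droplets.

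The promoters of several members are shown because genes of this kind share a known acinar regulator. The PTF1 complex, which holds Ptf1a and Rbpjl, binds an E-box together with a TC-box. The RefSeq promoter table (GRCm38.p6) held 6 of the 7 measured genes and did not list Clps. The 250 bases before each start were searched on both strands for CACCTG and for TGGGAA, and no match of either string overlapped a match of the other. CACCTG was found in 4 of the 6 promoters and in 17.2% of all 32851 promoters, TGGGAA in 5 of the 6 and in 21.6%, and both in 3 of the 6 (Cela2a, Cel and Prss2) and in 3.91%. The 4 windows below are those of Ctrb1 (chr8:111691011-111691260, minus strand) and Cela3b (chr4:137430521-137430770, minus strand), the members whose levels differed most between arrays, and of Cel (chr2:28563404-28563653, minus strand) and Prss2 (chr6:41521526-41521775, plus strand), which held both strings. Capitals mark the matches, which are strings in these windows and no evidence of binding.
Ctrb1: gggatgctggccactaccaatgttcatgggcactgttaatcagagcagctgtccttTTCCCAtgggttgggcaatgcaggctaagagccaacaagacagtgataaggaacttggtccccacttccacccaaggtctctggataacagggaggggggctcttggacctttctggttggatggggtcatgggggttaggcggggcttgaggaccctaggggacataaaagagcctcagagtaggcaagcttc
Cela3b: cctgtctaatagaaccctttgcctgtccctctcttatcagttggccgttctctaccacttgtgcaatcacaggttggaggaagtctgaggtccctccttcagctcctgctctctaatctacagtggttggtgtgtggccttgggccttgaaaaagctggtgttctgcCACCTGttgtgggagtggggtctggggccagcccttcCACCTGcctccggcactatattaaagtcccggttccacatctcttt
Cel: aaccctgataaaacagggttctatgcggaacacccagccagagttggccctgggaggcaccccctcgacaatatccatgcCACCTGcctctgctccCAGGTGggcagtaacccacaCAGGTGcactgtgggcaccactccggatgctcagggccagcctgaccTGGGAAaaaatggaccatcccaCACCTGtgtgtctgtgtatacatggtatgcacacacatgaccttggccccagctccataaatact
Prss2: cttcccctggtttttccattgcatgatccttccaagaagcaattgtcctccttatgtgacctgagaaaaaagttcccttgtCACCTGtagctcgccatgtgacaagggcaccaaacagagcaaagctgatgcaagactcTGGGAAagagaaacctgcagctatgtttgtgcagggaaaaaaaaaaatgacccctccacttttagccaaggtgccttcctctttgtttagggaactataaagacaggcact

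The defining markers of DCs were bright on every array. Itgax, which encodes CD11c, lay between 12.63 and 13.10, the MHC class II gene H2-Aa between 13.84 and 14.14, and the invariant chain gene Cd74 between 14.22 and 14.37. The mean of the 11 measured DC markers varied by 0.30 over the 24 arrays. Single DC markers varied more, Xcr1 by 1.58 (lowest on AF79, at 9.80), Zbtb46 by 1.41 and Flt3 by 0.84.

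The enzyme transcripts were high on the same 3 arrays. AF82, a naïve at-risk array, was highest for 7 of 7 members, and AF82, AF79 (naïve normal) and AF124 (stimulated at-risk, Set 2) were the 3 highest arrays for 7 of 7 members and for 14 of 14 of their probe sets. Of all 22626 probe sets, 39 (0.172%) had these 3 arrays on top. This order sets levels of both sets side by side, which by the study's methods were preprocessed separately. Within Set 1, AF82 and AF79 were the top arrays for 7 of 7 members and for 1.56% of all probe sets, and within Set 2, AF124 was the top array for 7 of 7 members and for 11.9% of all probe sets. The members' range, the highest minus the lowest array, was 1.91 to 5.05 with a median of 3.67, and the median range over all probe sets was 0.75.

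**Figure D1:**
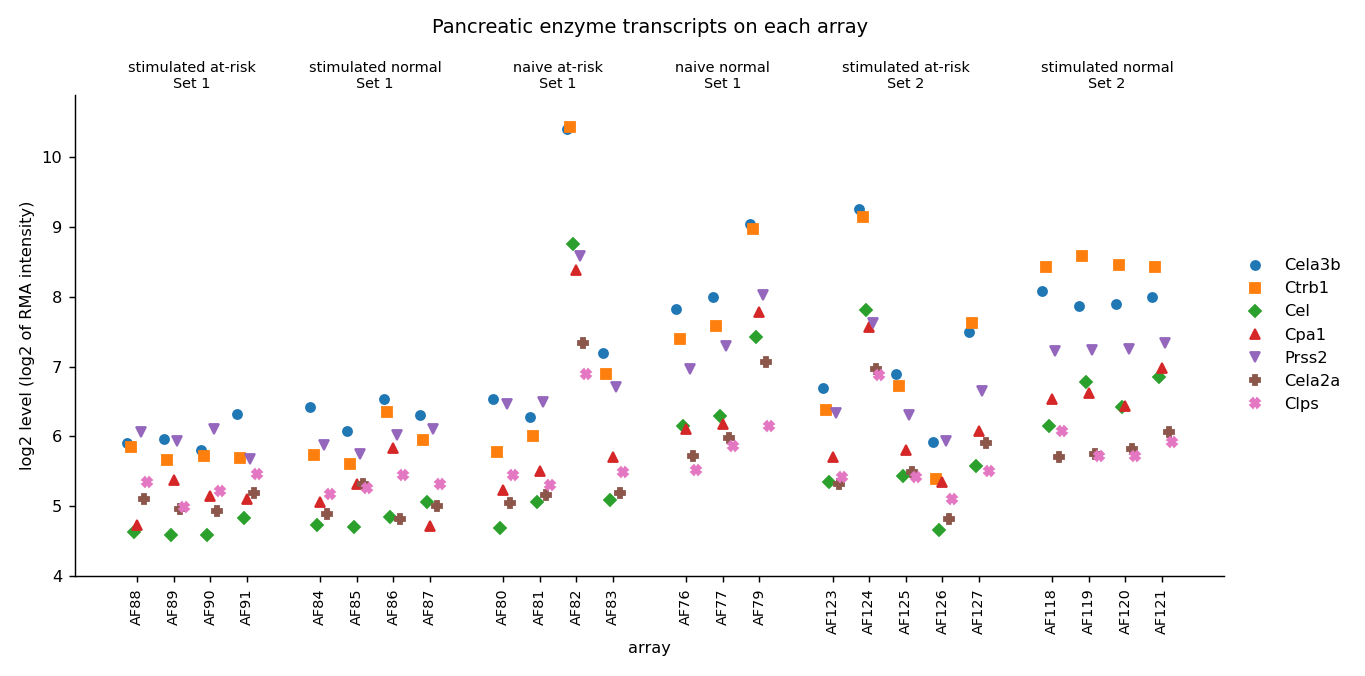
Log2 level (vertical axis) of the 7 measured pancreatic enzyme genes on each of the 24 arrays (horizontal axis), arranged by group, each symbol being the probe set of highest mean of that gene on 1 array. AF82 stands highest for every gene, AF79 and AF124 follow, the 4 stimulated normal arrays of Set 2 lie at intermediate levels and the 8 stimulated arrays of Set 1 are low.

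Ctrb1, the chymotrypsinogen gene, had the widest range. On the stimulated arrays of Set 1 its log2 levels were 5.84, 5.66, 5.72 and 5.69 for at-risk pups (AF88, AF89, AF90 and AF91), against 5.73, 5.60, 6.35 and 5.95 for normal pups (AF84, AF85, AF86 and AF87). The naïve arrays gave 5.78, 6.01, 10.43 and 6.89 for at-risk pups (AF80, AF81, AF82 and AF83), against 7.39, 7.58 and 8.97 for normal pups (AF76, AF77 and AF79). In Set 2 the at-risk arrays gave 6.38, 9.14, 6.72, 5.38 and 7.63 (AF123, AF124, AF125, AF126 and AF127), against 8.42, 8.59, 8.45 and 8.42 on the normal arrays (AF118, AF119, AF120 and AF121). The intensity on AF82, 1383.7, was 33.2 times that on AF126, the lowest array. In Set 2 the at-risk arrays lay both above and below the 4 normal arrays, which were close to each other.

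Cela3b, an elastase-type protease gene with 4 probe sets, showed the same order. In the array order given for Ctrb1, its levels were 5.91, 5.96, 5.80 and 6.32 in stimulated at-risk DCs of Set 1, against 6.42, 6.07, 6.53 and 6.30 in stimulated normal DCs. They were 6.53, 6.28, 10.41 and 7.19 in naïve at-risk DCs, against 7.83, 7.99 and 9.05 in naïve normal DCs. In Set 2 they were 6.69, 9.26, 6.89, 5.92 and 7.49 in at-risk DCs, against 8.08, 7.87, 7.90 and 7.99 in normal DCs. On AF82 the probe set was brighter than 75.6% of all probe sets of that array, and on the stimulated arrays of Set 1 it stood between percentiles 32.3 and 37.8. The other Cela3b probe sets had ranges of 4.14, 5.22 and 6.78.

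Cela2a, the other elastase gene, was dimmer. Stimulated DCs of Set 1 had 5.10, 4.95, 4.93 and 5.18 in at-risk pups, against 4.88, 5.32, 4.82 and 5.00 in normal pups. Naïve DCs had 5.04, 5.16, 7.34 and 5.19 in at-risk pups, against 5.71, 5.98 and 7.07 in normal pups. In Set 2 it had 5.31, 6.96, 5.48, 4.82 and 5.91 in at-risk DCs, against 5.70, 5.75, 5.81 and 6.06 in normal DCs. Here AF127 lay above 3 of the 4 normal arrays of its set, unlike the other members, for which AF124 alone of the at-risk arrays did so.

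Prss2, the trypsinogen gene, had 6.06, 5.93, 6.11 and 5.68 in stimulated at-risk DCs of Set 1, against 5.88, 5.74, 6.02 and 6.10 in stimulated normal DCs. Its levels in naïve DCs were 6.46, 6.49, 8.59 and 6.71 in at-risk pups, against 6.97, 7.30 and 8.03 in normal pups. In Set 2 they were 6.33, 7.63, 6.31, 5.93 and 6.65 in at-risk DCs, against 7.22, 7.23, 7.25 and 7.34 in normal DCs. By the brightest probe sets, Prss2 was the only member whose 4 stimulated at-risk arrays of Set 1 all lay below the 4 naïve at-risk arrays. Of all probe sets 8.84% did so, and of the 14 probe sets of the members 4 did. Trypsinogens form a multigene family, and the Prss2 and Cela3b probe sets used here carry the suffix by which the manufacturer marks probes shared with related transcripts, so part of these signals may come from relatives.

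Cpa1, the carboxypeptidase gene, had 4.72, 5.37, 5.14 and 5.10 in stimulated at-risk DCs of Set 1, against 5.05, 5.32, 5.83 and 4.71 in stimulated normal DCs. Naïve DCs gave 5.23, 5.50, 8.39 and 5.70 in at-risk pups, against 6.10, 6.17 and 7.78 in normal pups. In Set 2 it had 5.70, 7.56, 5.80, 5.34 and 6.07 in at-risk DCs, against 6.54, 6.62, 6.44 and 6.98 in normal DCs. As for all 7 members, the naïve at-risk arrays other than AF82 were all below the naïve normal arrays, which held for 6.85% of all probe sets. AF82 was set aside here as the highest array, which lowers the at-risk values by construction.

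The lipid-digesting members gave the same 3 arrays on top. Cel, the carboxyl ester lipase gene, had 4.62, 4.58, 4.59 and 4.83 in stimulated at-risk DCs of Set 1, against 4.73, 4.70, 4.84 and 5.06 in stimulated normal DCs. In naïve DCs it had 4.69, 5.05, 8.76 and 5.09 in at-risk pups, against 6.15, 6.29 and 7.42 in normal pups. In Set 2 it had 5.34, 7.81, 5.43, 4.65 and 5.58 in at-risk DCs, against 6.14, 6.78, 6.42 and 6.85 in normal DCs. The stimulated arrays of Set 1 were thus close to or below the lower quartile of their own arrays, and AF82 was brighter than 56.0% of its probe sets.

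Clps, the colipase gene, had the narrowest range by its brighter probe set. It gave 5.34, 4.98, 5.21 and 5.46 in stimulated at-risk DCs of Set 1, against 5.17, 5.26, 5.45 and 5.31 in stimulated normal DCs. In naïve DCs it gave 5.44, 5.30, 6.89 and 5.48 in at-risk pups, against 5.52, 5.86 and 6.14 in normal pups. In Set 2 it gave 5.42, 6.88, 5.41, 5.10 and 5.50 in at-risk DCs, against 6.08, 5.72, 5.71 and 5.92 in normal DCs. The other Clps probe set spanned 4.26, with the same 3 arrays on top, so the narrow range belonged to the probe set and not to the gene.

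The mean of the 7 members ordered the groups. By group median it was 5.36 in stimulated at-risk DCs and 5.46 in stimulated normal DCs of Set 1, 5.86 in naïve at-risk DCs and 6.74 in naïve normal DCs, and 6.01 in stimulated at-risk DCs and 6.91 in stimulated normal DCs of Set 2. The group of 4 naïve at-risk arrays reached from 5.59 to 8.69 and that of 5 stimulated at-risk arrays of Set 2 from 5.31 to 7.89, so each of them spanned the whole of its normal counterpart (6.52 to 7.78 and 6.85 to 7.08). The 2 stimulated groups of Set 1 overlapped, at 5.35 to 5.47 in at-risk and 5.41 to 5.69 in normal DCs.

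The members varied together over the arrays. Pearson's r between the levels of 2 members was 0.88 to 0.97 over the 24 arrays (21 pairs, median 0.95), and 0.87 to 0.98 (median 0.94) after each level was taken as its deviation from the mean of its group. Within Set 1 it was 0.91 to 0.99 over 15 arrays and within Set 2 0.82 to 0.98 over 9 arrays. These r describe arrays that share groups, sets and a few high values, and no p-value was computed. Without AF79, AF82 and AF124 the levels still had r of 0.80 to 0.96 over 21 arrays, and the deviations from group means 0.25 to 0.90 (median 0.56). Over the 8 stimulated arrays of Set 1, where all members were low, r ran from -0.62 to 0.70 with a median of 0.03.

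On the linear scale, the excess of AF82 over the median of the stimulated Set 1 arrays was 1330.7 intensity units for Ctrb1, 1287.4 for Cela3b, 407.9 for Cel, 322.8 for Prss2, 299.7 for Cpa1, 131.0 for Cela2a and 79.7 for Clps. Divided by the same excess on AF79 this gave ratios of 1.28 (Cela2a) to 2.96 (Ctrb1), with a median of 2.51. In Set 2, the excess of AF124 over the lowest array was 1.48 (Prss2) to 3.48 (Clps) times the mean excess of the 4 normal arrays. Intensities of different probe sets are not comparable as amounts, so only the ratios between arrays were set against each other.

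Other genes of the acinar cell followed the members in part. Of 10 measured pancreatic enzymes outside the list, 6 were highest on AF82 and 4 (Cpb1, Ctrl, Pnliprp2 and Prss3) had the same 3 arrays on top. Cpb1, a carboxypeptidase gene, had 8.99 on AF82, 7.99 on AF79 and 7.60 on AF124, against a median of 5.21 over all arrays. Ctrl, a chymotrypsin-like protease gene, was brighter throughout, at 9.93, 9.68 and 9.68 against a median of 7.98. The trypsinogen gene Prss3 was dim, between 3.49 and 5.11. Pnliprp1, a lipase-related gene, was highest on AF82 (9.60) and AF124 (8.81), but AF121 (8.24) came next and AF79 had 7.82, against a median of 5.05. Cela1, in contrast, was bright on every array (9.23 to 10.73), Amy1 (3.78 to 4.67) and Ctrc (5.15 to 6.01) varied by 0.88 and 0.86, and Pla2g1b was lowest on AF124 (4.50).

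Among 18 measured acinar genes that are not enzymes, Zg16 and Sycn, 2 genes of zymogen granule proteins, had the same 3 arrays on top. Zg16 had 7.74 on AF82, 7.01 on AF79 and 7.35 on AF124, against a median of 5.62. Sycn had nearly equal levels on these arrays, at 5.69, 5.70 and 5.72, with AF118 next at 5.65, against a median of 5.24. Another Sycn probe set, with a range of 1.18, had the same 3 arrays on top. Reg1, which encodes a secreted lectin-like protein of acinar cells, was highest on AF82 (9.10) and AF79 (7.67), while AF118 and AF124 had 7.59 each, against a median of 4.97. The acinar transcription factors varied less: Ptf1a stayed between 3.91 and 4.38, Rbpjl between 4.62 and 5.40 and Nr5a2 between 4.18 and 4.98. Bhlha15, which plasma cells also express, lay between 7.34 and 8.76, Reg2 was highest on AF79 (5.61) and Spink1, a trypsin inhibitor gene, on AF82 (5.52). Gp2, a zymogen granule membrane protein that intestinal M cells also make, was bright throughout (9.08 to 10.23) and lowest on AF82.

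The 10 genes most like the members were then taken from all other probe sets with 1 symbol, by Pearson's r between deviations from group means and the mean deviation of the 7 members over the 24 arrays. They were Rnase1, Cpb1 and Pnliprp2 (r = 0.98 each), Zg16 (0.97), 2210010C04Rik (0.96), Reg1 and Pnliprp1 (0.95 each), Ctrl (0.94), Dmbt1 (0.90) and Cuzd1 (0.89). In this ranking the probe set of highest r stood for each gene. The Pnliprp2 probe set of highest mean, used for the lists, had r of 0.88. Of 20366 probe sets ranked, 10 (0.0491%) had r of 0.9 or more. Rnase1, the pancreatic ribonuclease gene, had 7.02 on AF82, 6.04 on AF79 and 6.74 on AF124, against a median of 5.19. 2210010C04Rik, which the table does not describe further, had 7.91, 6.98 and 6.81, against a median of 4.83. Without the 3 arrays the r of Dmbt1 was 0.33 and that of Cuzd1 -0.03, while the other 8 kept r between 0.64 and 0.89.

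Markers of other tissues near the spleen did not share the order of all 3 arrays, though AF79 or AF124 was highest for some list means. None of 12 islet, 11 duct and epithelium, 11 stomach, 13 liver, 8 adipose, 5 mesothelial, 7 intestinal and 6 kidney and adrenal genes had AF82, AF79 and AF124 as its 3 highest arrays. Only 0.172% of all probe sets had these 3 arrays on top, so the lack of such genes in these lists says little. The mean of these lists varied by 0.29 (stomach) to 0.40 (liver) over the 24 arrays, while the mean of the 7 members varied by 3.38. AF79 (4.95) and AF124 (4.90) had the highest islet means, against 4.75 on AF82. AF79 also had the highest liver mean (5.08) and AF124 the highest mesothelial mean (4.78). The lower quartile over all probe sets was highest on AF79 (5.09), so dim signals on that array may be slightly raised. Ins2, the insulin gene, stayed between 4.74 and 5.51. Gcg, which encodes glucagon, was the islet gene with the widest range (2.03), at 5.89 on AF124, 5.26 on AF79 and 4.63 on AF82, against a median of 4.30, and its r with the members, over deviations from group means on the 24 arrays, was 0.73. Alb, the albumin gene, stayed between 4.86 and 5.32 and Krt19, a duct keratin gene, between 4.43 and 5.09. Single genes with a wider range, Cdh1 (2.50) among duct and epithelium, Fabp4 (2.54) among adipose and Serpina1b (2.12) among liver genes, had r with the members of -0.06, 0.23 and 0.33.

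**Figure D2:**
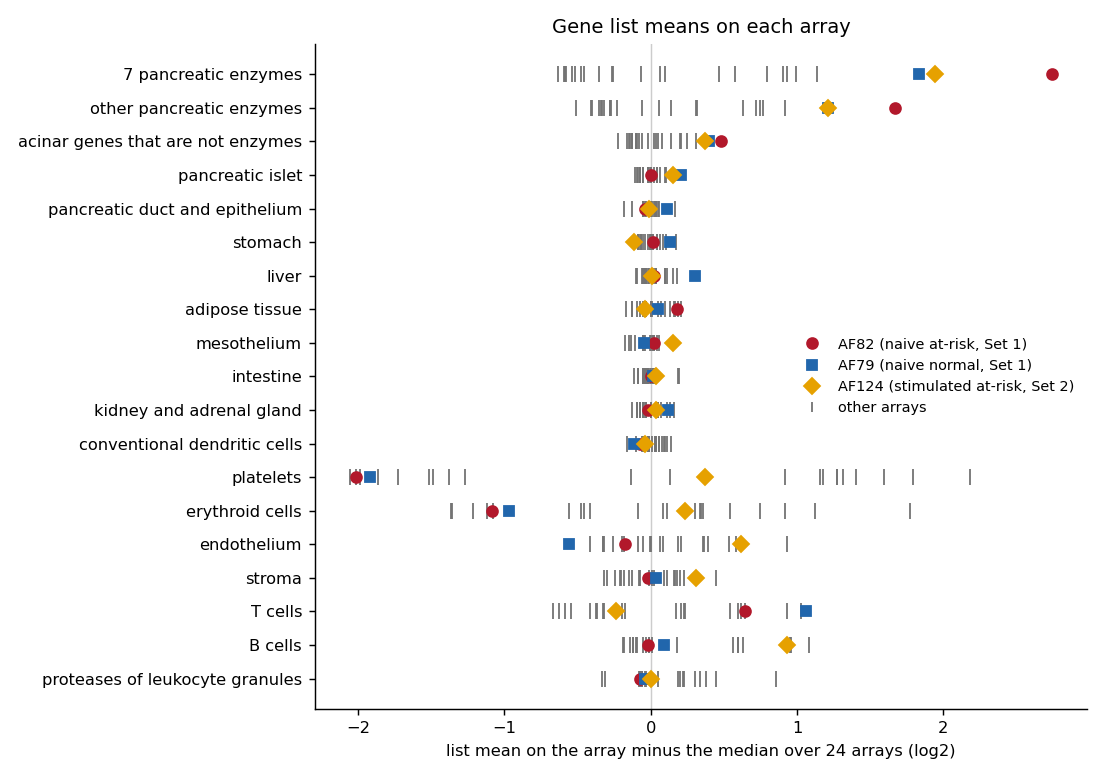
Mean log2 level of each gene list on an array minus the median of that mean over the 24 arrays (horizontal axis), with 1 row per list and 1 mark per array; coloured symbols are AF82, AF79 and AF124. The 3 coloured arrays lie to the far right for the 7 enzymes (2.74, 1.84 and 1.94) and for the other pancreatic enzymes (1.67, 1.21 and 1.21), and near the other arrays for islet, duct, stomach, liver, adipose, mesothelial, intestinal and kidney lists. Among these last lists AF79 lies furthest right for islet (0.21) and liver (0.30) and AF124 for mesothelial genes (0.16).

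Markers of blood and spleen cells also differed between arrays, the platelet markers by another pattern and the T cell markers by the group order of the enzymes. The mean of 10 platelet markers was 9.36 to 10.27 in stimulated at-risk DCs and 9.24 to 9.68 in stimulated normal DCs of Set 1, 6.03 to 6.36 in naïve at-risk DCs and 6.07 to 6.22 in naïve normal DCs, and 7.95 to 9.26 in stimulated at-risk DCs and 6.57 to 6.82 in stimulated normal DCs of Set 2. The stimulated groups of Set 1 were thus highest in platelet transcripts and lowest in the median of the enzymes, but within the naïve at-risk group AF82 had 6.07 for platelets, inside the range of the other 3 arrays. The mean of 8 T cell markers was 8.56 to 8.65 in stimulated at-risk DCs and 8.31 to 9.52 in stimulated normal DCs of Set 1, 9.57 to 9.62 in naïve at-risk DCs and 9.91 to 10.04 in naïve normal DCs, and 8.35 to 8.80 in stimulated at-risk DCs and 9.15 to 9.21 in stimulated normal DCs of Set 2. Within each set the group medians of the T cell mean thus had the same order as those of the enzymes. AF79 had the highest T cell mean of all arrays (10.04), but AF82 (9.62) did not stand apart from the other naïve at-risk arrays. None of 16 proteases of leukocyte granules, such as Elane and Mpo, which were highest on AF123, had the 3 arrays on top. Only 0.172% of all probe sets did, so this lack says little. Whether the cells that contribute these transcripts, or anything else in the preparation, had a part in the enzyme levels was not tested. In bulk RNA, fewer cells of a type and less RNA per cell cannot be told apart.

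**Figure D3:**
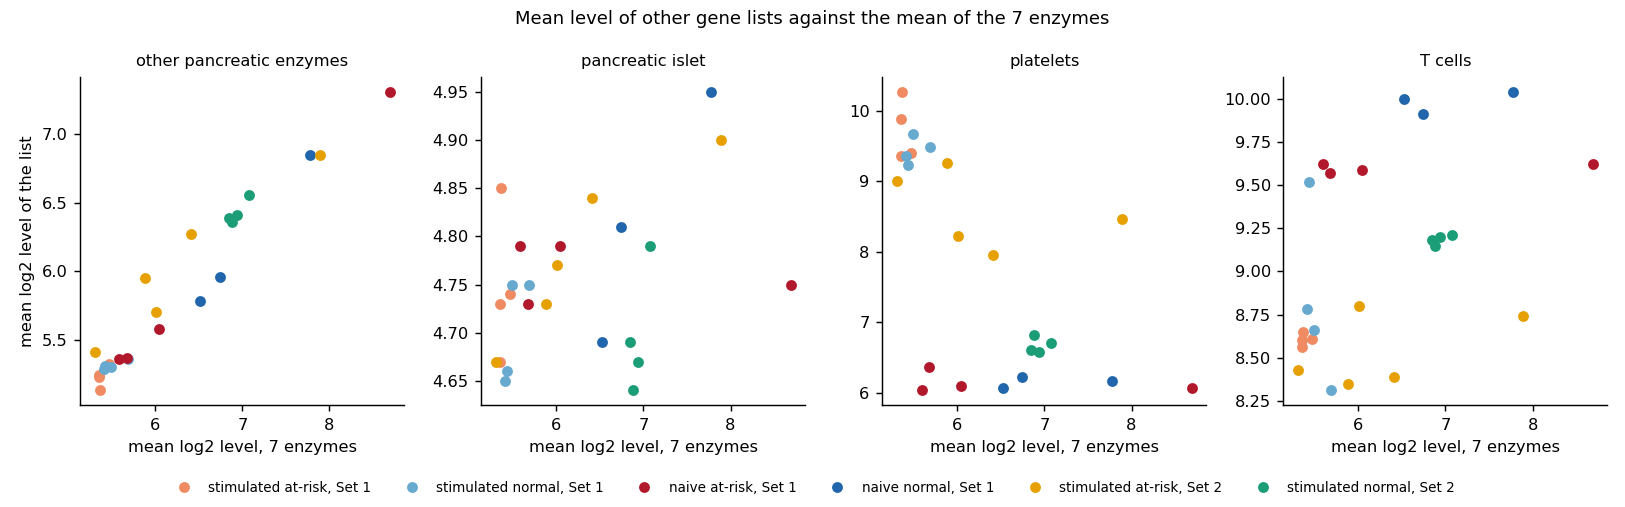
Mean log2 level of other pancreatic enzymes, islet genes, platelet markers and T cell markers (vertical axes, each with its own range) against the mean log2 level of the 7 enzymes (horizontal axes), with 1 point per array coloured by group. Other pancreatic enzymes rise with the 7 enzymes over groups and sets, the islet mean stays between 4.64 and 4.95, and the arrays richest in platelet markers are among the lowest in enzymes.

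In naïve pups, no member was called between at-risk and normal DCs by limma at a Benjamini-Hochberg adjusted p of 0.05 over all probe sets and a level at least 25% higher in either group than in the other, and 0.34% of all probe sets were called. Nor did the levels of any member fall wholly below those of normal DCs, which 5.39% of all probe sets did. None of the 7 had an unadjusted p under 0.05. The log2 fold changes were -0.06 (Clps) to -0.72 (Cel, SE 0.70, adjusted p = 0.639), with a median of -0.57 and a median of 0.002 over all probe sets. The size of these differences rested on AF79 and AF82. Without AF79 they were smaller, at -0.32 for Cel, -0.31 for Cela3b, -0.20 for Ctrb1, -0.16 for Cela2a and -0.07 for Prss2, and above 0 for Cpa1 (0.07) and Clps (0.09). AF82 was singled out as the highest array for every member, so leaving it out lowers the at-risk values by construction. Without AF82, all 7 members, which varied together, lay lower on each of the 3 remaining at-risk arrays than on any normal array, as 6.85% of all probe sets did. Cel (log2 fold change -1.68, SE 0.25, limma adjusted p = 0.0165) and Cela3b (-1.62, SE 0.28, adjusted p = 0.0403) were then called lower, against 0.203% of all probe sets. Without AF79, AF82 and AF124, a choice made after seeing the data, Cel was the only member called (-1.28, limma adjusted p = 0.00415), against 0.119% of all probe sets called lower.

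In stimulated pups, no member was called with both sets in 1 fit and set as a term (1.73% of all probe sets were called), and Ctrb1 alone had an unadjusted p under 0.05. Its log2 fold change was -0.83 (SE 0.37, limma adjusted p = 0.265). In this fit 8 of 10 platelet, 7 of 10 erythroid and 5 of 12 endothelial markers were called higher in at-risk DCs (medians 1.22, 0.92 and 0.28). Of 8 T cell markers 1 was called lower (median -0.46). The part of these cells was not tested. In Set 1 the members differed little, by -0.33 (Cela3b) to 0.04 (Cela2a), none was called, and 0.0707% of all probe sets were. No member lay wholly lower in at-risk DCs there, as 3.47% of all probe sets did, nor in Set 2, where 4.47% did. In Set 2 no member was called either, against 4.62% of all probe sets, with log2 fold changes of -0.13 (Cela2a) to -1.42 (Ctrb1, SE 0.61, adjusted p = 0.208) and an unadjusted p under 0.05 for Ctrb1 and Prss2.

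The Set 2 comparison turned on AF124. AF124 was singled out as the highest array of the set for every member, so leaving it out lowers the at-risk means by construction. Without AF124, 6 of 7 members were called lower in at-risk DCs, against 1.92% of all probe sets. The members varied together, so these calls are not independent results. Ctrb1 had a log2 fold change of -1.94 (SE 0.39, limma adjusted p = 0.0279), Cel -1.29 (SE 0.22, 0.0153), Cela3b -1.21 (SE 0.27, 0.0448), Prss2 -0.95 (SE 0.13, 0.0056), Cpa1 -0.92 (SE 0.17, 0.0185) and Clps -0.50 (SE 0.11, 0.0481). Cela2a, at -0.45, was not called (adjusted p = 0.274). The same 6 members lay lower on each of the 4 remaining at-risk arrays than on any normal array of the set, as 5.83% of all probe sets did. In the same comparison with all arrays, 9 of 10 platelet markers were called higher and 6 of 8 T cell markers lower in at-risk DCs, with median log2 fold changes of 2.04 and -0.68. Of 10 erythroid markers 5, and of 12 endothelial markers 6, were called higher (medians 1.31 and 0.39). Their part in the enzyme values was not tested.

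The maternal effect in stimulated pups was not shown to differ between the sets for any member (Set 2 minus Set 1, log2 differences of -0.15 for Clps to -1.24 for Ctrb1, adjusted p of 0.308 or more by limma, no unadjusted p under 0.05, 1.79% of all probe sets called). Without AF124, Cel (-1.12, adjusted p = 0.0384) and Prss2 (-0.96, adjusted p = 0.0134) were called, against 1.15% of all probe sets called in the lower direction. Leaving out this array, the members' highest in Set 2, moves these differences down by construction.

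**Figure D4:**
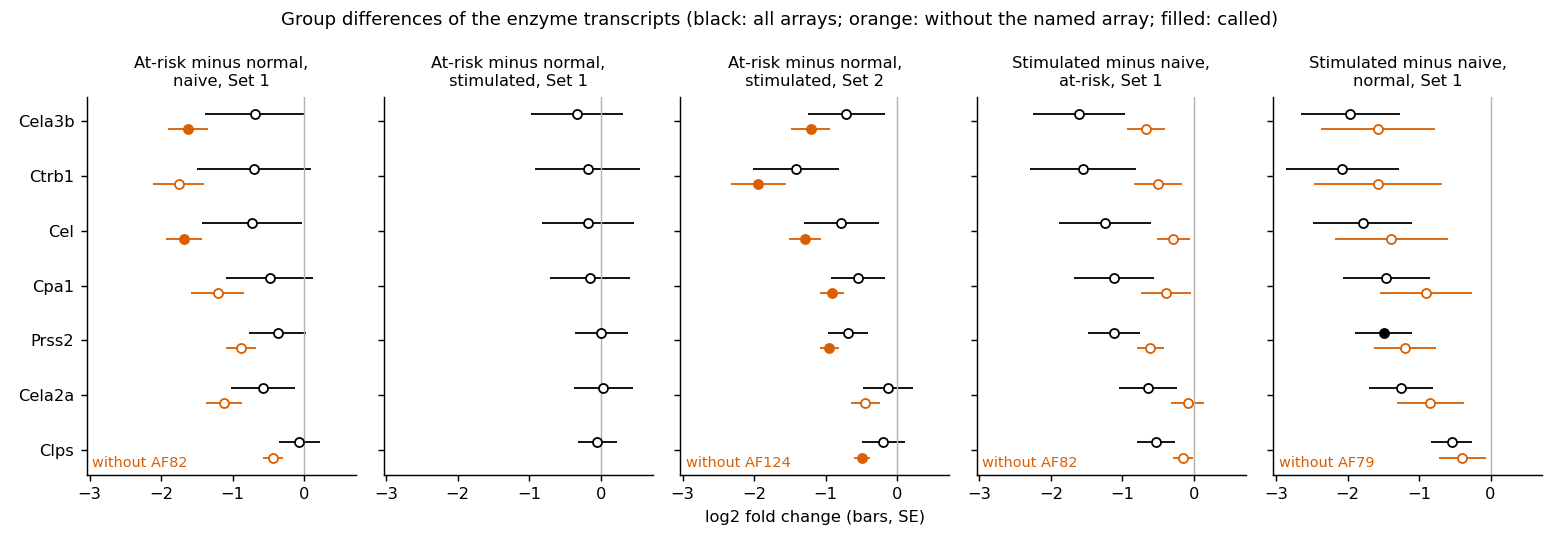
Log2 fold change with its standard error (horizontal axes) of each of the 7 enzyme genes in 5 comparisons, with all arrays in black and without the named array in orange; filled symbols are called by limma at an adjusted p of 0.05 and a level at least 25% higher in either group. Leaving out AF82 or AF124 moved the at-risk minus normal differences away from 0 (leaving out AF79, not drawn, moved those of naïve pups toward or past 0), and leaving out AF82 or AF79 moved the stimulated minus naïve differences toward 0.

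In Set 1 the stimulated minus naïve differences were below 0 for 7 of 7 members in at-risk and in normal pups, and 1 member was called, in normal pups. In normal pups all 7 members lay lower on each of the 4 stimulated arrays than on any of the 3 naïve arrays, as 10.3% of all probe sets did. The log2 fold changes were -0.55 (Clps) to -2.07 (Ctrb1, SE 0.80, adjusted p = 0.10), with a median of -1.50. Prss2, at -1.50 (SE 0.40, limma adjusted p = 0.0208), fell and was the only member called by its brightest probe set, while 11.5% of all probe sets were called and 5.76% in the lower direction. Of all 14 probe sets of the members 3 were called lower, the others being 2 dimmer ones of Cela3b (-2.37, adjusted p = 0.0499, and -3.72, adjusted p = 0.0359). The Prss2 call was lost without AF79 (-1.20, adjusted p = 0.09) or AF85 (-1.43, adjusted p = 0.0514). With only the 7 arrays of normal pups in the fit, 5 members were called, against 7.76% of all probe sets, and without AF79, AF82 and AF124, 6 were (all but Clps), against 5.77% of all probe sets called lower.

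In at-risk pups the stimulated minus naïve difference was -0.53 (Clps) to -1.60 (Cela3b, SE 0.65, adjusted p = 0.161), with a median of -1.12. By the brightest probe sets Prss2 alone lay wholly lower on the stimulated arrays, as 8.84% of all probe sets did. Of the 14 probe sets of the members 4 did. No member was called, against 7.88% of all probe sets, and Cela3b and Prss2 had unadjusted p under 0.05. Without AF82, the highest array for every member, the difference was by construction closer to 0, at -0.09 (Cela2a) to -0.67 (Cela3b, adjusted p = 0.182). Without AF79, AF82 and AF124, Prss2 (-0.61, adjusted p = 0.00566) and Cela3b (-0.67, adjusted p = 0.0395) were called, against 3.88% of all probe sets called lower. The maternal effect did not differ between stimulated and naïve pups past the threshold for any member (0.02 for Clps to 0.61 for Cela2a, adjusted p of 0.787 or more by limma, no unadjusted p under 0.05, 0.0486% of all probe sets called). Platelet markers moved the other way in both comparisons: 9 of 10 were called higher in stimulated than in naïve normal DCs and 10 of 10 in stimulated than in naïve at-risk DCs, with median log2 fold changes of 3.26 and 3.65. T cell markers moved with the enzymes, with 8 of 8 called lower in normal and 7 of 8 in at-risk DCs. All 10 erythroid markers were called higher in both comparisons, with medians of 1.29 in normal and 1.85 in at-risk pups. Of 12 endothelial markers 2 were called higher and 2 lower in normal pups, and 6 higher and 1 lower in at-risk pups. Of 11 DC markers 2 (Xcr1 and Zbtb46) were called higher in normal pups and 0 in at-risk pups. The part of these cells in the enzyme levels was not tested.

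Few of the other acinar genes were called in these comparisons. Of the 10 other pancreatic enzymes, only Cela1 was called, at -0.52 (SE 0.10, limma adjusted p = 0.0179) between at-risk and normal DCs of Set 2, at -0.57 (SE 0.13, adjusted p = 0.04) for the difference of this effect between the sets and at -0.61 (SE 0.17, adjusted p = 0.0336) between stimulated and naïve at-risk DCs. Of all probe sets 4.62%, 1.79% and 7.88% were called in these comparisons, so 1 call among 10 genes says little. Of the 18 acinar genes that are not enzymes, only Gp2 was called, higher in stimulated DCs of at-risk (0.53, SE 0.12, limma adjusted p = 0.0105) and of normal pups (0.48, SE 0.13, adjusted p = 0.0239). Of all probe sets 7.88% and 11.5% were called there. Cela1 and Gp2 were bright on every array and neither had the order of arrays seen for the members. The medians of the other enzymes in the stimulated minus naïve comparisons were -0.55 in at-risk and -0.59 in normal pups, against -1.12 and -1.50 for the members and -0.015 and 0.004 for all probe sets.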

How the data were processed

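The authors deposited 1 table of RMA intensities on a linear scale for Affymetrix mouse arrays, under Affymetrix probe set names. By the study's methods 1 array of each set was excluded. The methods also state that the sets were preprocessed separately, with an alternative definition of the probe sets. Whether the deposited values were preprocessed separately was not established. No version of the RMA software was found. RMA subtracts background and equalises array distributions, which compresses low values. From the deposited intensity values log2 was taken with no pseudocount. After 64 control probe sets were left out, 22626 were tested, of which 20380 had 1 gene symbol, 691 several and 1555 none. A gene was represented by its probe set of highest mean, except in the ranking of the genes most alike, which took the probe set of highest r. limma 3.58.1 in R 4.3.3 (lmFit, eBayes) was fitted on all probe sets with Benjamini-Hochberg adjustment, on the 15 Set 1 arrays, the 9 Set 2 arrays, or the 17 stimulated arrays with set as a term. Other steps used Python 3.11.15. The fit was tested on simulated data. The text names the listed genes, list members of widest range or called in a comparison, a few defining or flat genes chosen after their values were seen, and the 10 genes most alike. Members and lists were chosen with earlier results of these data known. Alternatives were median centring, quantile normalization, a filter on dim probe sets, no fold threshold, array weights, a trended robust fit, the compared groups alone, no set term, set as a random block, and arrays left out. Array number limits the precision.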

Additional observations from a re-analysis of the deposited data

Results flagged for a closer look

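In groups of 4 or 5 arrays, the gap between the highest array and the next, divided by the range of the group, exceeded Dixon's 95% critical value for 7 of 35 combinations of gene and group. In naïve at-risk DCs, AF82 stood apart for Cela2a (7.34, next 5.19, ratio 0.938), Cel (8.76, next 5.09, ratio 0.901), Clps (6.89, next 5.48, ratio 0.889), Prss2 (8.59, next 6.71, ratio 0.88) and Cpa1 (8.39, next 5.70, ratio 0.85). In stimulated at-risk DCs of Set 2, AF124 stood apart for Clps (6.88, next 5.50, ratio 0.777). In stimulated at-risk DCs of Set 1, AF91 stood apart for Cel at a low level (4.83, next 4.62, ratio 0.848). The combinations share arrays, so they are not independent. The genes were chosen by levels on these same arrays, so the flags are descriptions and the count cannot be set against a chance rate.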

How the results depend on the processing

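AF82 was highest for 7 of 7 members and the same 3 arrays were on top with the deposited values (median range 3.67), median centring (3.70), quantile normalization (3.67) and the other probe sets (4.26). Calls depended on single arrays. The number of members called with 1 array left out was 0 to 2 for at-risk minus normal in naïve pups, 0 to 6 for the same in stimulated pups of Set 2, 0 to 2 for the difference between the sets and 0 to 1 for stimulated minus naïve in normal pups, against 0, 0, 0 and 1 by limma with all arrays. Without AF79, AF82 and AF124, chosen after seeing the data, the counts were 1, 6, 2 and 6 (0.164%, 4.04%, 1.60% and 11.3% of all probe sets called), and 2 against 0 for stimulated minus naïve in at-risk pups (8.33%). In normal pups the count was 5 with only the compared groups (7.76%) and 0 with dim probe sets left out (14.6%), which kept 2 members in the test. In at-risk pups array weights gave 1 (9.42%).

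Of 1010 recomputed differences of single members, 942 kept sign and call, 35 changed sign, of which 0 were called, 31 became called and 2 lost their call. Sign changes by a setting were Clps in naïve pups (0.03 with array weights), Prss2 in stimulated pups of Set 1 (0.00 with median centring, -0.01 with quantile normalization), Cela2a there (-0.01 with array weights), and, for the difference of the maternal effect between stimulated and naïve pups, Clps (-0.12) and Cpa1 (-0.06) with array weights. With 1 array left out, at-risk minus normal in naïve pups ran from -0.44 to 0.09 for Clps and from -1.21 to 0.07 for Cpa1. In stimulated pups of both sets Cela2a ran from -0.21 to 0.06. In Set 1 Clps ran from -0.12 to 0.04, Cpa1 from -0.32 to 0.05, Prss2 from -0.06 to 0.10 and Cela2a from -0.02 to 0.14. In Set 2 Cela2a ran from -0.45 to 0.09, and its difference between the sets from -0.48 to 0.05. The difference between stimulated and naïve pups ran from -0.14 to 0.39 for Clps, -0.22 to 1.06 for Cpa1 and -0.08 to 1.29 for Cela3b. The cause was not tested.

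Over all probe sets, the calls changed by more than 1.5 times in the following settings. Naïve maternal calls were 12 with the compared groups alone and 37 without the 3 arrays, against 77. Stimulated calls were 226 without dim probe sets, against 391, and 0.535% of probe sets with no set term, against 1.73%. In Set 1 they were 71 with array weights, 34 with the robust fit and 27 with the compared groups, against 16. In Set 2 they were 632 without dim probe sets and 3136 with array weights, against 1045, and for the difference between sets 2454 with array weights, against 404. For the difference between stimulated and naïve pups they were 0 to 42, against 11. With 1 array left out the calls ran from 44 to 269 in naïve pups, 139 to 578 in stimulated pups, 2 to 61 in Set 1, 504 to 1546 in Set 2, 204 to 989 for the difference between sets and 1 to 30 for that between stimulated and naïve pups. No paired analysis was possible because the array numbers are not shared between groups. Dim levels near the lower quartile, as for most members on the stimulated Set 1 arrays, limit what differences could be seen there.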
